A study of Mus musculus with 36 samples.

Results

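Early B lymphocytes arise from multipotent progenitors that carry the receptor tyrosine kinases Kit and Flt3 and a set of transcription factors shared with other blood lineages. The expression of 10 such genes was followed here: the ETS factors Erg, Fli1 and Spi1, the Runt factors Runx1 and Runx2, the MADS-box factor Mef2c, the HMG-box factor Sox4, the LIM adaptor Lmo2, and the receptors Kit and Flt3. They were taken by symbol from 3 tables of normalized RNA-seq counts, which together hold 60388 distinct gene names or identifiers, and Pax5 ChIP-seq peaks were counted over each gene and the 10 kb before its start. All 10 genes were present in each table and passed the filter on low counts, a normalized count of at least 10 in at least 2 libraries.

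The study asked how SIRT7, a NAD+-dependent deacetylase, and the acetylation of lysine K198 of Pax5, the factor that commits progenitors to the B lineage, shape early B cells. The first table covers B cell precursors of the bone marrow of wild-type and Sirt7-/- mice on a 129Sv background, sorted as pro-B cells where CD43 was present and as pre-B cells where it was not, the knockout being germline and present in every cell. The second covers Pax5-/- cells of C57BL/6 mice, labelled as bone marrow pro-B cells and described in the study's methods as fetal liver progenitors, which received a retrovirus carrying nothing else (empty vector, EV), wild-type Pax5 (Pax5WT), the glutamine mutant that mimics acetylation (Pax5K198Q) or the arginine mutant that cannot be acetylated (Pax5K198R). The third covers cultured pro-B cells of the 129Sv mice, wild type with EV and Sirt7-/- with EV, Pax5WT or Pax5K198R. The transduced cells of both cultures were grown on OP9 mouse stromal cells with 10 ng per mL each of IL-7, SCF and FLT3-L, so the ligands of Kit and Flt3 were supplied in the medium, the transduced cells were sorted by a vector marker, and the added Pax5 was driven by the vector and not by its own promoter. Each of the 12 RNA groups has 2 libraries, and the RNA replicates were generated on different days. Normalized counts summed to 50603577 to 54896194 per sorted library, 28865461 to 30520853 per Pax5-/- library and 27814214 to 30160880 per cultured library. Bulk libraries cannot tell fewer expressing cells from less RNA per cell.

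As background, Erg and Runx1 act in hematopoietic stem cells, Spi1 (PU.1) is set high in myeloid cells and lower in B cells, and Mef2c and Sox4 act in early lymphoid progenitors. Kit binds stem cell factor and Flt3 binds FLT3 ligand, and signals from both keep early progenitors alive and dividing. Pax5 is known both to activate B cell genes and to repress genes of other lineages, Flt3 among the latter.

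The libraries were checked against their labels before the genes were read. Sirt7 counts, normalized by size factor, were 2692 and 2533 in pro-B cells of wild-type mice and 363 and 366 in those of Sirt7-/- mice, and 5613 and 5219 against 1066 and 821 in pre-B cells, so a part of the transcript remained in the knockout. In culture Sirt7 was at 1324 and 905 in wild-type cells and between 325 and 407 in the 6 Sirt7-/- libraries. For 4 of the 8 sorted libraries a second label names the other stage. The titles were followed, and Igll1, which encodes a part of the surrogate light chain made by pro-B cells, lay between 22753 and 29529 in the libraries titled pro-B and between 494 and 4122 in those titled pre-B. Pax5 RNA itself was at 2201 and 2103 in the Pax5-/- cells with EV, at 6458 and 6152 with Pax5WT, at 8918 and 8963 with Pax5K198Q, and at 21162 and 16610 with Pax5K198R, so the forms also differ in Pax5 transcript, and effects of the form and of its amount cannot be told apart.

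Among the sorted libraries, the second Sirt7-/- pre-B library stands apart. Its Igll1 was 4122 against 1324 in the first library of the group. Thy1, a marker of T cells and of some progenitors, was 323.5 against 43.7, and Siglech, a marker of plasmacytoid dendritic cells, was 497.3 against 0. The summed level of the 7 erythroid and megakaryocyte markers, led by Hba-a1, was 44984 there against 5186 in its partner and 3392 to 25908 in the other libraries. The 25908 came from the pro-B library of the same mouse. Siglech was at 491.7 in that library, against 80.7 in the first Sirt7-/- pro-B library. Values without the second Sirt7-/- pre-B library are given beside the called stage changes of the 10 genes in Sirt7-/- cells. They keep the pro-B library of that mouse.

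In sorted wild-type cells, Erg, Kit, Flt3 and Runx2 fell from the pro-B to the pre-B stage, while Fli1, Spi1 and Sox4 rose. Erg and both receptors fell by 21.9-fold or more, while the increases reached 1.81-fold. By limma with Benjamini-Hochberg adjustment over 17649 genes and a call at an adjusted p below 0.05, 7 of the 10 were called, where 40.2% of all genes tested were. In Sirt7-/- cells 7 were called as well, against 35.7% of all genes, and 6 without the second pre-B library, against 33.1%.

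The 2 largest falls among the factors and receptors were those of Erg and Kit. Normalized counts of Erg were 6972 and 7808 in the pro-B cells of wild-type mice and 347.1 and 148.7 in their pre-B cells. In the knockout it was at 9716 and 9394 in pro-B and at 650.4 and 1646 in pre-B cells. All 4 pro-B libraries stand well above all 4 pre-B libraries, and the log2 fold change was -5.01 (SE 0.497, adjusted p = 0.000505, limma), a 32.3-fold fall, in wild type and -3.21 (SE 0.497, adjusted p = 0.0036, limma), a 9.23-fold fall, in Sirt7-/- cells. Without the second Sirt7-/- pre-B library the latter was -3.87. Fli1, the closest ETS relative of Erg, went the other way, from 8026 and 9418 to 13192 and 13233 in wild type and from 8205 and 8754 to 13450 and 12575 in Sirt7-/- cells. The stages do not overlap, and the log2 fold changes were 0.60 (SE 0.0984, adjusted p = 0.00327, limma) and 0.62 (adjusted p = 0.00399, limma), the latter 0.67 without the second Sirt7-/- pre-B library.

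Spi1, the third ETS factor, was at 6461 and 6336 in wild-type pro-B and 12872 and 10423 in pre-B cells. Without Sirt7 it was at 6577 and 5194 against 12065 and 10329. Pre-B cells were higher in each genotype without overlap, by 0.86 (SE 0.154, adjusted p = 0.00482, limma) and 0.93 (adjusted p = 0.00449, limma) on the log2 scale, the latter 1.05 without the second Sirt7-/- pre-B library. The 10 myeloid markers, led by Itgam, summed to 34642 and 25514 in wild-type pro-B cells and to 15831 and 15615 in pre-B cells, and to 27746 and 10299 against 12215 and 11387 in Sirt7-/- cells. Between the stages 40.2% of all genes tested were called in wild type and 35.7% in Sirt7-/- cells. Of the 10 myeloid markers, Lyz2, Csf1r and Ly6g fell in both genotypes, and Mpo fell in Sirt7-/- cells. Itgam alone rose, by 0.92 and 1.07 (adjusted p = 0.000584 and 0.000555, limma). In wild type the share of these markers called is near that of all genes. The medians were -1.47 in wild type and -1.85 in Sirt7-/- cells. Lyz2 alone fell and Itgam alone rose in Sirt7-/- cells, with a median of -1.27, once the second pre-B library was left out. The part of myeloid cells in Spi1 was not tested.

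The Runt factors differed from each other. Runx1, needed for the first blood stem cells and expressed through B cell development, lay between 9160 and 10613 in all 8 sorted libraries and was called in neither genotype (log2 fold change -0.06, 95% interval -0.26 to 0.14, in wild type). Runx2, best known from bone, was at 330 and 649.9 in wild-type pro-B cells against 65.9 and 62.3 in pre-B cells, a fall of 2.83 on the log2 scale (SE 0.839, adjusted p = 0.0338, limma). This call was lost when any 1 of the 4 wild-type libraries was left out (adjusted p = 0.0689 to 0.162, limma) and with no filter on low counts (adjusted p = 0.0708, limma). Its Sirt7-/- values were 389.8 and 1019 against 89.6 and 527.9, where the ranges overlap, and the change of -1.53 was not called (adjusted p = 0.2, limma). With the mouse of origin as a block Runx2 was called there (adjusted p = 0.0342, limma), and without the second pre-B library the change was -2.80 (adjusted p = 0.0229, limma). The 2 highest values of Runx2 within Sirt7-/- cells, 1019 in pro-B and 527.9 in pre-B, came from the second mouse, in whose libraries Siglech was at 491.7 and 497.3 against 80.7 and 0 in the first; the part of these cells in Runx2 was not tested.

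Mef2c, a factor of lymphoid progenitors, was at 3004 and 3231 in pro-B and 3143 and 2911 in pre-B cells of wild type, overlapping (log2 fold change -0.04, 95% interval -0.66 to 0.57). In Sirt7-/- cells it was at 3405 and 2935 in pro-B and at 4108 and 7581 in pre-B cells, a log2 change of 0.82 (SE 0.26, adjusted p = 0.0469, limma). That call was lost with the mouse as a block (adjusted p = 0.0629, limma), without the second pre-B library (0.38, adjusted p = 0.0819, limma) and without either pro-B library (adjusted p = 0.102 and 0.184, limma). It was lost as well with no filter, with equal totals, with quantile normalization and with these 2 groups fitted alone (adjusted p = 0.0507 to 0.131, limma). Sox4, which supports the survival of pro-B cells, was the most abundant of the 10 per kb and rose from 21470 and 22329 to 36017 and 36832 in wild type. The log2 fold change was 0.73 (SE 0.153, adjusted p = 0.00895, limma), and in Sirt7-/- cells, at 21497 and 27139 against 31178 and 40869, it was 0.56 (adjusted p = 0.0278, limma). Without the second Sirt7-/- pre-B library the latter was 0.37 (adjusted p = 0.106, limma), and without the first Sirt7-/- pro-B library 0.40 (adjusted p = 0.141, limma). This call of Sox4 was also lost with no filter, with quantile normalization and with these groups alone (adjusted p = 0.0559 to 0.0963, limma). Without the first wild-type pro-B library the wild-type change was 0.71 (adjusted p = 0.0519, limma). Lmo2, an adaptor of the stem cell factor Tal1, was at 918 and 1463 in pro-B and 1796 and 2061 in pre-B cells of wild type (log2 fold change 0.73, adjusted p = 0.243, limma), and at 1733 and 617.2 against 1058 and 1108 in Sirt7-/- cells, where the stages overlap.

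Of the receptors, Kit was at 1529 and 1727 in wild-type pro-B cells and at 37.6 and 78.7 in pre-B cells. In the knockout it was at 1967 and 1753 against 20.3 and 290.8. The stages are far apart in both genotypes, with log2 fold changes of -4.87 (SE 1.07, adjusted p = 0.0109, limma) and -4.56 (adjusted p = 0.0164, limma), and the latter was -6.45 without the second and -2.67 without the first Sirt7-/- pre-B library. The call of Kit was lost without the first pre-B library or either pro-B library of wild type (adjusted p = 0.0513 to 0.0647, limma) and without either pro-B library of Sirt7-/- cells (adjusted p = 0.0721 and 0.0676, limma) or with these groups alone (adjusted p = 0.068, limma), at changes of -4.35 or beyond. Kit also marks mast cells. The 6 mast cell and basophil markers, led by Prss34, summed to 543.1 and 558.5 in wild-type pro-B cells, to 642 and 130.1 in Sirt7-/- pro-B cells and to between 3.2 and 58.0 in the pre-B libraries, and Kit was at 1967 and 1753 where that sum was 642 and 130.1. The marker counts that follow are to be read against the 40.2% of all genes called in wild type and 35.7% in Sirt7-/- cells. The 10 T cell markers, led by Lck, summed to 6835 to 7391 in the pro-B and 3195 to 3905 in the pre-B libraries. Of the 10, 8 fell in wild type (median -4.92 on the log2 scale), and 6 in Sirt7-/- cells with a median of -2.34 (5 and -2.91 without the second pre-B library). Of 5 mast cell and basophil markers tested, 3 fell in wild type with a median of -4.80. In Sirt7-/- cells 1 fell, with a median of -3.17, or -4.82 without the second pre-B library. The 5 plasmacytoid dendritic cell markers had a median of -2.37 in wild type. In Sirt7-/- cells it was -0.94, or -2.28 without the second pre-B library. Lag3 fell in wild type, and Cox6a2 rose in both genotypes. The part of such cells in the stage differences was not tested. Flt3 was the lower receptor, at 272 and 412.1 in wild-type pro-B and at 26.1 and 7.65 in pre-B cells. The Sirt7-/- values were 427.4 and 528.6 against 32.0 and 112.7. It fell by 4.45 (SE 0.712, adjusted p = 0.003, limma) and by 2.96 (adjusted p = 0.0182, limma) on the log2 scale. Without the second Sirt7-/- pre-B library the latter was -3.85, and without the first -2.07. This call was lost without either pro-B library or the first pre-B library of Sirt7-/- cells (adjusted p = 0.0651 to 0.0864, limma).

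**Figure D1:**
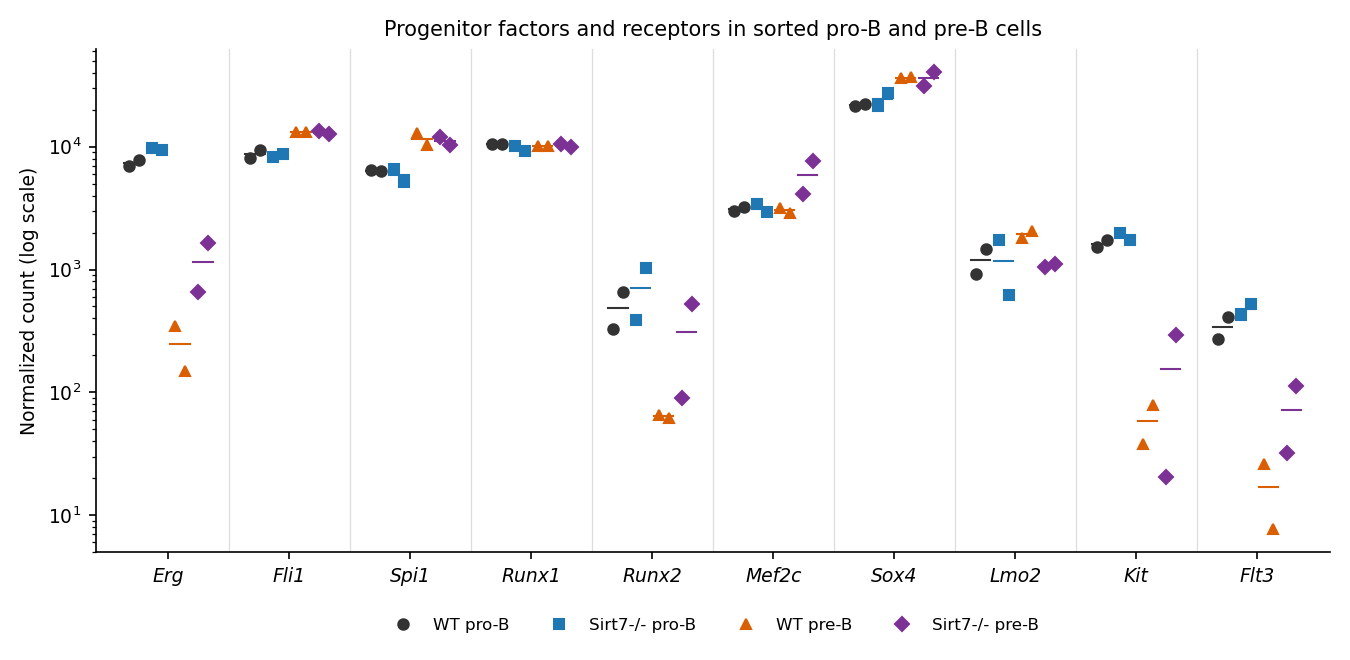
Normalized counts (log scale) of the 10 genes in sorted cells, 1 point per library and a bar at the mean of each group of 2. Erg, Kit and Flt3 drop between pro-B and pre-B in both genotypes, Runx1 stays between 9160 and 10613, and the upper of the 2 Sirt7-/- pre-B points in Erg, Runx2, Mef2c, Kit and Flt3 is the second library.

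Loss of Sirt7 called none of the 10 genes in sorted cells. In pro-B cells 0.0623% of all genes tested were called, 11 genes (0 without the first library of either group, 9 or 15 without the second), and the log2 fold changes of the 10 ran from -0.16 to 0.50. In pre-B cells 0.085% were called, and Erg came closest, at 650.4 and 1646 in Sirt7-/- against 347.1 and 148.7 in wild type. The ranges of Erg do not overlap, but the log2 fold change of 2.18 (SE 0.497) had an adjusted p of 0.161 by limma, and was 1.51 without the second Sirt7-/- library. Flt3, Runx2 (1.75) and Mef2c (0.88) had positive log2 differences too and were not called (adjusted p = 0.294, 0.426 and 0.229, limma). DESeq2 on the whole reads recovered from the table called Erg, Mef2c and Runx2 (adjusted p = 9.8e-05, 0.0153 and 0.0479), whereas edgeR's quasi-likelihood test called none of the 10. Without the second Sirt7-/- library the differences of Flt3, Runx2 and Mef2c were 1.11, 0.48 and 0.44, and without the first Mef2c was called at 1.33 (adjusted p = 0.0267, limma). The 5 markers of plasmacytoid dendritic cells, a type that expresses Flt3 and Runx2, had a median log2 difference of 2.73 in the same comparison. Of the 5, 4 were higher in Sirt7-/- cells and none was called. Siglech, Klk1 and Ccr9 were at 497.3, 43.2 and 107.5 in the second Sirt7-/- library and at 0, 0 and 16.0 in the first. Their wild-type values were 0 and 3.28, 0 and 0, and 35.6 and 3.28. Lag3 was at 23.5 and 45.3 in Sirt7-/- cells and at 0 in both wild-type libraries. The sum of the 5 markers, led by Cox6a2, was 1805 and 1922 in Sirt7-/- and 2705 and 1717 in wild-type pre-B cells. The part of such cells in these differences was not tested. Of 12 B cell markers, Igll1 and Vpreb1 alone fell between the stages in both genotypes. In pre-B libraries Igll1 was at 1324 and 4122 without Sirt7 and at 494 and 926 in wild type. Vpreb1 was at 982 and 3268 against 288 and 348. Of the 12, 5 were higher without Sirt7 and none was called. The part of pro-B cells or of earlier pre-B cells in the differences of Erg and Flt3 was not tested either. The test of whether the stage change differs by genotype called 0.00567% of all genes, 1 gene (0 to 12 with 1 library left out), and none of the 10, with Erg at 1.81 (adjusted p = 0.886, limma), Flt3 at 1.49, Runx2 at 1.31 and Mef2c at 0.86 (adjusted p = 0.955, 0.967 and 0.909, limma). Without the second Sirt7-/- pre-B library these interactions of Erg, Flt3, Runx2 and Mef2c were 1.14, 0.60, 0.03 and 0.42.

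Related genes give the setting of the stage change, and their counts are to be read against the 40.2% of all genes called. Of 18 other stem and progenitor factors tested in wild type, 10 fell and 3 rose, with a median log2 fold change of -1.12 where that of all genes was -0.04. Hoxa9, a homeobox factor of progenitors, went from 646 and 727.3 to 79.5 and 125.7, and Meis1, its partner, from 795.5 and 832.7 to 418.2 and 508.3. Myb, needed by pro-B cells, rose by 0.60 on the log2 scale (adjusted p = 0.0106, limma). Of 16 relatives of the ETS, Runt, MEF2, SOX and LMO families, 6 rose and 4 fell. Spib, an ETS factor close to Spi1, rose 3.94-fold, from 50682 and 52162 to 196367 and 208514, and Runx3 fell 1.85-fold. Of 10 further receptors, 3 fell (Csf1r, Cd34 and Il3ra) and 2 rose (Csf2ra and Cd93). Of 19 ligands and signal transducers of Kit and Flt3, 6 rose and 3 fell, and among those that rose Flt3l, the ligand of Flt3, went from 1387 and 1187 to 3680 and 3347 while its receptor fell. The shares called among the receptors and the signal transducers are near that of all genes.

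Pax5 was mapped by ChIP-seq in the Pax5-/- cells carrying each form, with 2 peak lists per form. The lists hold 10646 and 11830 peaks for Pax5WT, 3750 and 3957 for Pax5K198Q, and 12158 and 13997 for Pax5K198R. All 10 genes had a peak in each Pax5WT and Pax5K198R list, where 32.2% and 35.7% (Pax5WT) and 36.5% and 38.8% (Pax5K198R) of 21938 protein-coding genes did. With Pax5K198Q 7 and 6 of the 10 had one, against 14.5% and 15% of coding genes. These genes are long, Runx2 covering 318.8 kb, so peaks were also set against length. The 1.37 Mb of their windows held 23.4 and 27 peaks per Mb with Pax5WT, 9.5 and 10.2 with Pax5K198Q, and 27 and 30.7 with Pax5K198R, where the windows of all coding genes held 7.18 and 8.13, 2.61 and 2.72, and 8.41 and 9.47. Counting regions found in both replicates, the genes held 22 with Pax5WT, 10 with Pax5K198Q and 30 with Pax5K198R. Lmo2 had none in both replicates for any form, and the 10 with Pax5K198Q lay in Erg, Spi1, Sox4 and Kit.

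The following 201-base windows, centred on the summit of the highest peak in the region, are shown so that sites described in the text can be read beside their values (GRCm38, plus strand). They were picked after enrichments and motifs were seen, from 29 windows free of annotated exons in regions found in both lists of Pax5WT or of Pax5K198R. The 4 that hold GCGTGAC are all among them and 9 of the 29 hold any of the motifs, so the windows shown do not stand for the rest. Capitals mark GCGTGAC or GCNTGAC, cores of the Pax5 recognition sequence, the first being contained in the second, GAGGAAGT for PU.1 and TGTGGTT for Runx factors, searched on both strands.
Erg region 2 (chr16:95459526-95459726): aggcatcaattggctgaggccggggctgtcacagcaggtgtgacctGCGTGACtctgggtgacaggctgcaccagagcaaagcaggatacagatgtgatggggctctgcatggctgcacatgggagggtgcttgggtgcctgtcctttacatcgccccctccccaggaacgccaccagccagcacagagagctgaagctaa
Erg region 9 (chr16:95428280-95428480): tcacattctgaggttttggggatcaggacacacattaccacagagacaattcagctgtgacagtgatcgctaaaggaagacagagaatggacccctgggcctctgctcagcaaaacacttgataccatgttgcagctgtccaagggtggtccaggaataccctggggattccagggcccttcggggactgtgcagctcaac
Sox4 region 2 (chr13:28958262-28958462): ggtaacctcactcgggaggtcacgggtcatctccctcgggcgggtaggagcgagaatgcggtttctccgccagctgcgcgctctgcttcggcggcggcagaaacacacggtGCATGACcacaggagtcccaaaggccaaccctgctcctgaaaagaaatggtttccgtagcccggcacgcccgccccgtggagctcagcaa
Kit region 3 (chr5:75604642-75604842): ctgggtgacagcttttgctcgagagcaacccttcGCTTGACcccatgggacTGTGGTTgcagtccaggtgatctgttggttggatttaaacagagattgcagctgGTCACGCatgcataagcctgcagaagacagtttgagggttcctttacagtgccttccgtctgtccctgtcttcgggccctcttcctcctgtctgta
Fli1 region 1 (chr9:32540178-32540378): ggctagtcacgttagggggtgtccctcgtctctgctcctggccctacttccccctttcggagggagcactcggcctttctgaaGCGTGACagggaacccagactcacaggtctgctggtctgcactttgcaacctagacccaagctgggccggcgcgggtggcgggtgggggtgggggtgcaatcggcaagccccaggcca
Runx1 region 4 (chr16:92730018-92730218): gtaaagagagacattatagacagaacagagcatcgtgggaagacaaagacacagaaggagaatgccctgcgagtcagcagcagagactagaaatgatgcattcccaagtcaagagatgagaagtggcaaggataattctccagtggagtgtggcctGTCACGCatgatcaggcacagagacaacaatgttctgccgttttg
Runx2 region 5 (chr17:44654734-44654934): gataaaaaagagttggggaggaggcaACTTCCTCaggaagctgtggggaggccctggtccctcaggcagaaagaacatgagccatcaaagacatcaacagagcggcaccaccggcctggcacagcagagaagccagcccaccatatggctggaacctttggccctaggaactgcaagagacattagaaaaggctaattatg
No annotated exon lies in these windows. Of all peaks in the 6 lists, 4.71% to 7.74% held GCGTGAC, 14.5% to 18.4% GCNTGAC, 3.67% to 3.99% GAGGAAGT and 7.11% to 8.35% TGTGGTT in a window of the same length.

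Erg (chr16:95359169-95586593, minus strand), which held the most regions, had 11 of which 5 were in all 6 lists. Region 2 lies 278 bases before the start of a shorter coding transcript, within an intron of the longer ones, and carries GCGTGAC as shown above. Its fold enrichment over input was 9.87 and 13.1 with Pax5WT, 6.34 and 11.4 with Pax5K198Q, and 16.7 and 23.0 with Pax5K198R, so the Pax5K198R lists are above both others without overlap. Region 9, an intronic site about 158 kb into the gene with none of the 4 motifs in its window, was at 20.8 and 14.5, at 10.4 and 9.91, and at 14.3 and 16.6 in the same order. Pax5K198Q is lowest there, and Pax5WT and Pax5K198R overlap. Region 10, its neighbour, was at 9.86 and 17.2, at 5.07 and 7.57, and at 13.6 and 19.5. A single exact comparison of 2 against 2 libraries cannot go below p = 0.33, so these enrichments are given without a test.

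Sox4 (chr13:28948919-28953713, minus strand), a gene of a single exon, had its strongest region 4.65 kb before its start. The fold enrichment of this region 2 was 21.1 and 25.5 with Pax5WT, 12.6 and 10.2 with Pax5K198Q, and 21.3 and 23.8 with Pax5K198R. It was the highest of all 59 regions with Pax5WT, and Pax5K198Q stood lower in both lists. Kit (chr5:75574916-75656722, plus strand) had a region in an intron 29.8 kb after its start whose window holds GCGTGAC on the minus strand, a GCNTGAC match and TGTGGTT. This region 3 was at 16.6 and 19.3 with Pax5WT, 8.43 and 10.4 with Pax5K198Q, and 4.02 and 10.9 with Pax5K198R, so here both mutants lie below Pax5WT, and the Pax5K198R lists differ widely. Region 2 of Kit, intronic and 900 bases after the start of a coding transcript, was at 8.71 and 6.07, 7.99 and 5.61, and 7.08 and 8.99, with all forms overlapping.

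Across the genome 7914 regions were in both Pax5WT lists and 2424 in both Pax5K198Q lists. All 6 lists shared 2307 regions, a set that leaves out any region lacking a peak in either Pax5K198Q list. Over the 2307, the median ratio of mean fold enrichment was 0.656 for Pax5K198Q over Pax5WT and 1.03 for Pax5K198R over Pax5WT. The 9 such regions in Erg, Sox4 and Kit ranged from 0.467 (Erg region 10) to 1.72 (Sox4 region 1) for Pax5K198Q and from 0.415 (Kit region 3) to 1.90 (Sox4 region 1) for Pax5K198R. Sox4 region 1 was the weakest of the 9 with Pax5WT, at 3.39 and 3.23.

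The highest fold enrichment among the other 7 genes was 12.45, in Fli1. Fli1 (chr9:32422204-32542861, minus strand) had its region 1 in an intron 2.58 kb after the gene start, which was at 8.12 and 5.77 with Pax5WT and 6.07 and 12.3 with Pax5K198R and had no Pax5K198Q peak. Runx1 (chr16:92601466-92826149, minus strand) had 10 regions, and its region 4, intronic, was at 6.68 and 7.92 with Pax5WT and 7.73 and 6.71 with Pax5K198R, also with no Pax5K198Q peak. Runx2 (chr17:44495987-44814797, minus strand) had 5 regions. Its region 5, intronic, was at 7.35 and 8.33 with Pax5WT, at 6.64 in 1 Pax5K198Q list, and at 11.5 and 5.50 with Pax5K198R. Its region 2, found in both Pax5K198R lists, has a 201-base window that overlaps an exon of another gene, Supt3. Absence from a list says that no peak passed the caller's threshold, not that Pax5 was absent, and the Pax5K198Q lists are the shortest. Flt3 (chr5:147330741-147400489, minus strand) had its region 1 on an exon at the gene's start, which was at 5.15 and 7.61 with Pax5WT, at 7.71 in 1 Pax5K198Q list, and at 11.7 and 5.55 with Pax5K198R. Spi1 (chr2:91082390-91115756, plus strand) had its region 1 at 3.6 kb upstream, which was at 6.28 and 9.31 with Pax5WT, 5.67 and 4.60 with Pax5K198Q and 5.80 in 1 Pax5K198R list, the only one of the 59 regions in both Pax5K198Q lists and not in both Pax5K198R lists. Mef2c (chr13:83504034-83667080, plus strand) had its region 3 on an exon beside the start of a shorter coding transcript, which was at 7.47 and 7.88 with Pax5WT, 4.82 in 1 Pax5K198Q list, and 6.44 and 9.20 with Pax5K198R. Lmo2 (chr2:103957986-103981878, plus strand) had 2 regions, at 4.27 and 4.46 in single Pax5WT lists and at 4.51 and 5.25 in single Pax5K198R lists.

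**Figure D2:**
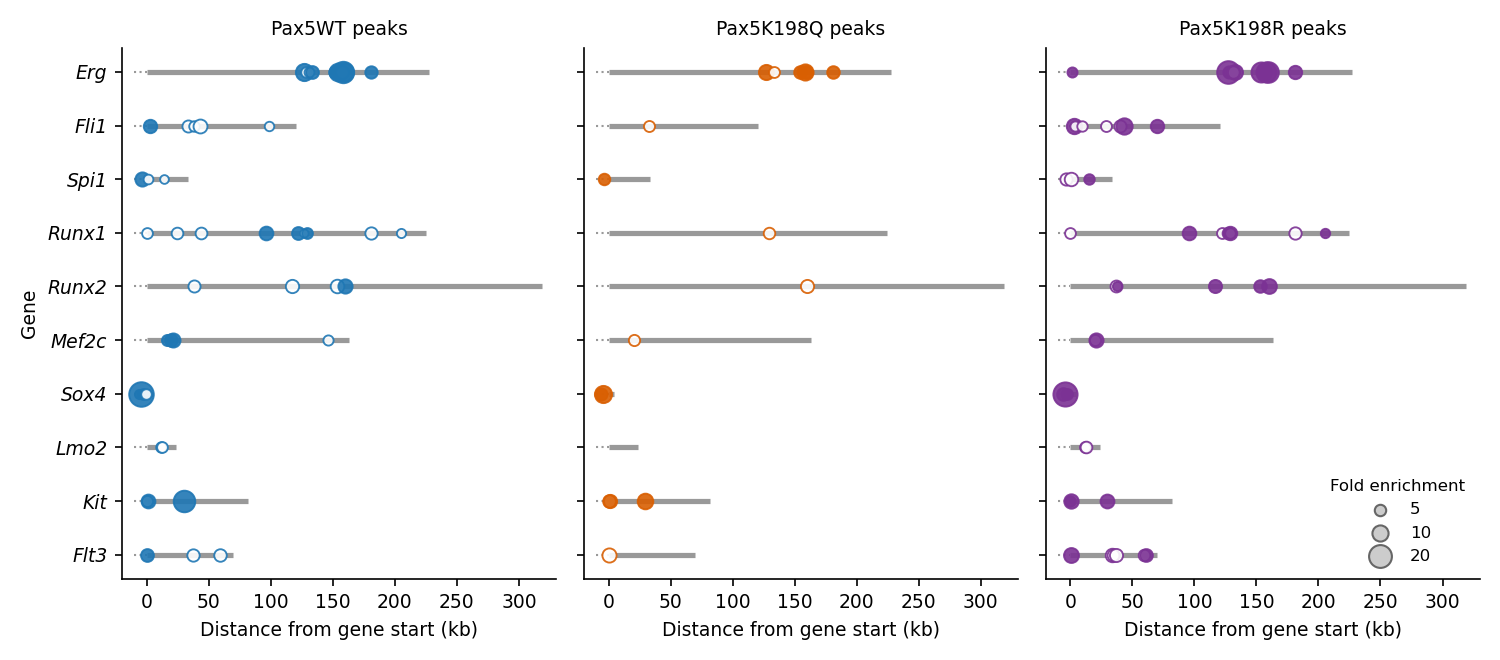
Pax5 peak regions over the 10 genes by distance from the gene start (kb), 1 panel per Pax5 form; grey lines are gene bodies, dotted lines the 10 kb upstream, circle area the mean fold enrichment, and open circles mark regions found in 1 of 2 replicates. Erg, Sox4, Kit and Spi1 alone have filled circles with Pax5K198Q, and Lmo2 has none with any form.

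In Pax5-/- cells, Pax5WT raised Erg and lowered Runx2 and Flt3, and Pax5K198R changed these the same way and raised Sox4. By limma over 13345 genes, 3 of the 10 were called for Pax5WT against EV, where 3.25% of all genes were, 4 for Pax5K198R, where 9.92% were, and none for Pax5K198Q, where 0.922% were. The 3 comparisons share the EV libraries. Libraries of the same replicate number deviate together, and with the replicate as a block 6 of the 10 were called for Pax5WT (10.1% of all genes), 4 for Pax5K198Q (2.72%) and 7 for Pax5K198R (21.2%). Fli1, Runx1 and Lmo2 were called for no form in either fit.

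Erg was at 1636 and 2058 normalized counts with EV, 3506 and 3490 with Pax5WT, 2859 and 3005 with Pax5K198Q and 4518 and 4144 with Pax5K198R. The 4 groups do not overlap, and the order runs EV, Pax5K198Q, Pax5WT, Pax5K198R. Against EV the log2 fold change was 0.93 (SE 0.12, adjusted p = 0.00765, limma) for Pax5WT, 0.68 (adjusted p = 0.056, limma) for Pax5K198Q and 1.24 (adjusted p = 0.00112, limma) for Pax5K198R. With the block the Pax5K198Q change in Erg was called as well (adjusted p = 0.0153, limma), as it was without the second EV library (0.84, adjusted p = 0.0415, limma). The Pax5WT call was lost without either Pax5WT library (adjusted p = 0.0675 and 0.0829, limma) at the same change of 0.93. Sox4 kept the same order, at 8077 and 8060, 10124 and 9912, 10963 and 10354, and 12284 and 10890, the last 2 groups overlapping. It was called for Pax5K198R (0.52, SE 0.0889, adjusted p = 0.0102, limma), a call lost without either EV library (adjusted p = 0.0624 and 0.0611, limma) and with these 2 groups fitted alone (adjusted p = 0.0688, limma). With the block Sox4 was called also for Pax5WT (0.40, adjusted p = 0.0073, limma) and for Pax5K198Q (0.31, adjusted p = 0.0484, limma).

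Runx2 went down. It was at 1807 and 1956 with EV, 848.2 and 717.7 with Pax5WT, 1280 and 1382 with Pax5K198Q, and 769 and 790.1 with Pax5K198R. Pax5K198Q lies between EV and the others, which overlap. The log2 fold change was -1.27 (SE 0.12) for both Pax5WT (adjusted p = 0.0018, limma) and Pax5K198R (adjusted p = 0.00101, limma), a 2.41-fold fall, and -0.50 (adjusted p = 0.178, limma) for Pax5K198Q, which was not called in the blocked fit either. Flt3 was the second most abundant of the 10 per kb with EV, at 10022 and 8343, and was at 5028 and 4626 with Pax5WT, 6974 and 6057 with Pax5K198Q and 5875 and 5268 with Pax5K198R. All treated libraries lie below both EV libraries. The fall was 0.92 for Pax5WT (SE 0.123, adjusted p = 0.00844, limma) and 0.72 for Pax5K198R (adjusted p = 0.0104, limma) on the log2 scale, and the -0.49 of Pax5K198Q was called with the block alone (adjusted p = 0.207, and 0.00607 with the block, limma). The Flt3 calls were lost without either Pax5WT library or the first EV library for Pax5WT (adjusted p = 0.0554 to 0.101, limma), and without the second Pax5K198R or first EV library for Pax5K198R (adjusted p = 0.0537 and 0.0698, limma).

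Of 5 T cell markers tested, Cd3g, Zap70 and Thy1 fell with Pax5K198R against EV (median -1.64), where 9.92% of all genes were called. Of 6 myeloid markers Mpo and Csf1r fell and Lyz2 rose. Of 2 mast cell markers Cpa3 fell, and 10 of 11 B cell markers rose. With Pax5WT Lyz2 and 10 B cell markers rose, and with Pax5K198Q 9 B cell markers. No T or mast cell marker was called with either. The part of other cells in the changes of the 10 genes was not tested. Of 3 markers of plasmacytoid dendritic cells tested in this culture, none was called for Pax5WT or Pax5K198Q against EV, and Siglech fell with Pax5K198R. The 5 markers, led by Ccr9, summed to 10199 and 7963 with EV, 4539 and 2269 with Pax5WT, 6904 and 4388 with Pax5K198Q, and 4486 and 1323 with Pax5K198R. Siglech was at 2160 and 1439, 712.9 and 381.5, 1130 and 712.3, and 366.1 and 76.2, and Klk1 was at 0 in each library. Within Pax5K198R the sum was 4486 and 1323 in the 2 libraries while Runx2 was at 769 and 790.1 and Flt3 at 5875 and 5268; the part of such cells in the falls of Runx2 and Flt3 was not tested. The 10 stromal markers of the feeder cells, led by Fn1, summed to 2824 to 7103 with no order by form. Against EV, 8 were higher with Pax5WT (median 0.52), 9 with Pax5K198Q (0.45) and 8 with Pax5K198R (0.25). Pdgfrb alone was called, lower with Pax5WT and with Pax5K198R.

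With all libraries fitted and no block, none of the remaining genes of this culture was called against EV. Kit was at 1933 and 1319 with EV, 2549 and 2388 with Pax5WT, 2763 and 2134 with Pax5K198Q and 3218 and 2143 with Pax5K198R, and its first replicate is the higher in each group. The log2 fold changes of 0.63, 0.60 and 0.72 were called only with the block (adjusted p = 0.0139, 0.0411 and 0.00397, against 0.276, 0.559 and 0.118 without it, limma). Spi1 was at 2972 and 2826 with EV, 1965 and 2174 with Pax5WT, 2246 and 2658 with Pax5K198Q and 2398 and 2120 with Pax5K198R, each form below EV. It was called with the block for Pax5WT (-0.49, adjusted p = 0.0245, limma) and Pax5K198R (-0.36, adjusted p = 0.0438, limma). Mef2c was at 11352 and 10942 with EV and at 9745 and 8362 with Pax5K198R, a change of -0.30 called with the block (adjusted p = 0.027, limma). Fli1 lay between 1590 and 1804, Runx1 between 7356 and 8711 and Lmo2 between 1038 and 1562 over the 8 libraries.

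Between the forms, Erg was higher (0.56, SE 0.12, adjusted p = 0.0405, limma) and Runx2 lower (-0.77, adjusted p = 0.0137, limma) with Pax5K198R than with Pax5K198Q, 2 of 10 where 5.01% of all genes were called. Both calls were lost without either Pax5K198Q library (adjusted p = 0.0751 to 0.215, limma), and that of Erg also without either Pax5K198R library (adjusted p = 0.107 and 0.0913, limma). With no filter, with equal totals, with quantile normalization or with these groups alone that of Erg was lost (adjusted p = 0.0503 to 0.084, limma), and with these groups alone that of Runx2 (adjusted p = 0.0653, limma). None of the 10 was called between Pax5K198R and Pax5WT, where 2.87% of all genes were; the differences ran from -0.29 (Lmo2) to 0.31 (Erg, 95% interval 0.03 to 0.59). None was called between Pax5K198Q and Pax5WT, where 0.0225% were. With the block Runx2 was called there, higher with Pax5K198Q by 0.77 (adjusted p = 0.0477, limma), 1 of 10 where 0.217% of all genes were.

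**Figure D3:**
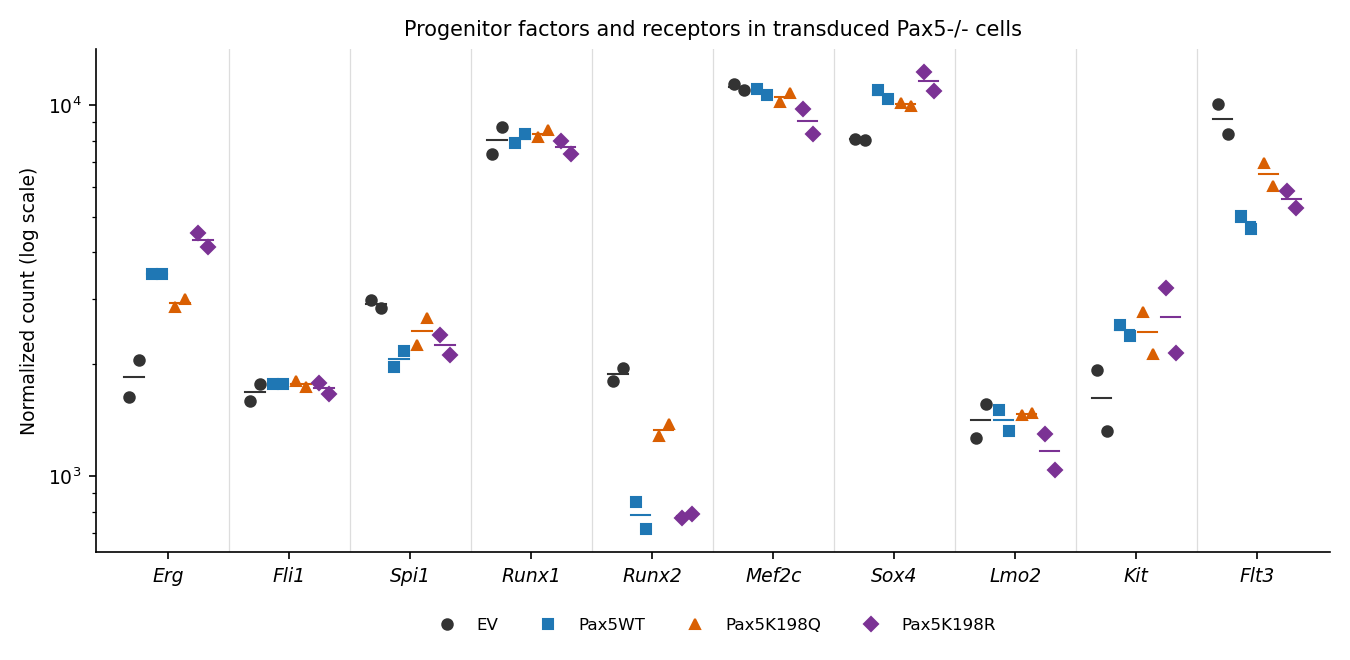
Normalized counts (log scale) of the 10 genes in Pax5-/- cells with EV or 1 of 3 Pax5 forms, 1 point per library and a bar at each group's mean. Erg and Sox4 lie lowest and Runx2 and Flt3 highest with EV, and Pax5K198Q lies between EV and the other forms for Erg, Runx2 and Flt3.

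Among related genes of the same culture, Ets1, an ETS factor of lymphocytes, rose with each form. It went from 3479 and 4498 with EV to 8894 and 9607 with Pax5WT, 7573 and 7522 with Pax5K198Q, and 8501 and 10707 with Pax5K198R. Runx3, the third Runt factor, was at 6141 and 6209 with EV, 3619 and 2950 with Pax5WT, 4232 and 4386 with Pax5K198Q and 2325 and 2127 with Pax5K198R. It fell with Pax5WT (-0.92, adjusted p = 0.00618, limma) and Pax5K198R (-1.47, adjusted p = 0.000424, limma), and was lower with Pax5K198R than with Pax5WT (-0.55, adjusted p = 0.0466, limma). Il7r, the receptor of the third cytokine in the medium, was at 1286 and 1293 with EV, 3614 and 3058 with Pax5WT, 3759 and 2796 with Pax5K198Q and 2019 and 1800 with Pax5K198R, and rose with Pax5WT (1.37, adjusted p = 0.00414, limma) and Pax5K198Q (1.33, adjusted p = 0.0088, limma). It was lower with Pax5K198R than with Pax5WT (-0.80, adjusted p = 0.0393, limma). Against the 3.25% and 9.92% of all genes called for Pax5WT and Pax5K198R, the related lists counted as follows. Of 15 family relatives tested, 1 rose and 2 fell with Pax5WT, and 2 rose and 3 fell with Pax5K198R. Of 16 stem and progenitor factors none was called with Pax5WT, and with Pax5K198R Bcl11a and Tal1 rose and Mycn fell. Of 19 ligands and signal transducers of Kit and Flt3, 1 fell with Pax5WT (Ptpn6, a phosphatase), and with Pax5K198R 2 rose (Stat5b and Pik3cd) and 2 fell (Pik3r1 and Ptpn11).

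In cultured Sirt7-/- pro-B cells, which make their own Pax5, Lmo2 was the only one of the 10 called, and only with Pax5K198R. Pax5 RNA was at 23862 and 27134 in wild-type cells with EV and at 25995 and 37114 in Sirt7-/- cells with EV. With Pax5WT it was at 43024 and 43260, and with Pax5K198R at 38690 and 45426. Lmo2 was at 447.2 and 398.6 normalized counts in wild-type cells with EV and at 691 and 693.2 in Sirt7-/- cells with EV. It was at 718.8 and 907.4 with Pax5WT and at 1299 and 2344 with Pax5K198R. The 4 groups do not overlap, and both Pax5K198R libraries are the highest. The log2 fold change of Pax5K198R against EV was 1.33 (SE 0.259, adjusted p = 0.0307, limma), 1 of 10 genes where 4.83% of all 13651 tested were called. The call was lost without the second Pax5K198R library (0.91, adjusted p = 0.12, limma), without either EV library (adjusted p = 0.145 and 0.125, limma) and with no filter on low counts (adjusted p = 0.0586, limma). The 10 stromal markers, led by Fn1, summed to 12603 and 9761 in wild-type cells with EV and, in Sirt7-/- cells, to 9095 and 12975 with EV, 14360 and 31543 with Pax5WT, and 10895 and 23830 with Pax5K198R. The second Pax5K198R library had both the higher Lmo2 and the higher stromal sum of its group, and the part of feeder cells in Lmo2 was not tested.

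With the replicate as a block, Kit was called with Pax5K198R beside Lmo2, 2 of 10 where 11.6% of all genes were. Kit was at 2487 and 1377 with EV, 3389 and 1927 with Pax5WT and 4667 and 2728 with Pax5K198R. The first replicate is higher in every group, and within each replicate the order is EV, Pax5WT, Pax5K198R. The log2 fold change for Pax5K198R was 0.95 (adjusted p = 0.263, and 0.000763 with the block, limma). For Pax5WT against EV none of the 10 was called, where 0.0366% of all genes were, and with the block 1 was, Kit at 0.47 (adjusted p = 0.0472, limma), where 1.96% were. Between Pax5K198R and Pax5WT none was called, where 0.425% were. With the block 2 were, Lmo2 at 1.11 (adjusted p = 0.0496, limma) and Kit at 0.48 (adjusted p = 0.0338, limma), where 2.3% were.

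Loss of Sirt7 in these cultures, EV against EV, called none of the 10, where 0.557% of all genes were called, 76 genes, and 3 to 60 with 1 library left out. Lmo2 was higher in Sirt7-/- cells by 0.71 (95% interval 0.11 to 1.31, adjusted p = 0.405, limma). Spi1, at 1429 and 1473 against 1095 and 1061, was higher by 0.43 (95% interval 0.10 to 0.75, adjusted p = 0.312, limma). Neither overlaps between the genotypes. Runx1, at 4009 and 4363 against 4754 and 5547, was lower by 0.30 on the log2 scale and not called (adjusted p = 0.492, limma).

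The other genes showed no call in the cultured cells. Erg was at 7318 and 7978 with EV, 7708 and 6482 with Pax5WT, 6210 and 6282 with Pax5K198R and 7210 and 7920 in wild type. Sox4 lay between 8682 and 11641, Fli1 between 1976 and 2240 and Mef2c between 3966 and 5053. Runx2 was at 19.9 and 20.8 in Sirt7-/- cells with EV, 22.8 and 74.2 with Pax5WT and 40.3 and 60.0 with Pax5K198R. In each of these 3 groups the library with the higher Runx2 also had the higher stromal sum given above, and all 10 stromal markers had a higher mean log2 level with Pax5WT and with Pax5K198R than with EV; the part of feeder cells in Runx2 was not tested. Runx2 and Flt3 were near the floor of this table, Runx2 between 13.5 and 74.2 and Flt3 between 3.9 and 41.6, where the sorted pro-B cells had at least 330 and 272; the tables were normalized separately, so this is a statement about each table's own scale. The related gene Il7r was at 10843 and 10445 in wild type and at 5361 and 6155 in Sirt7-/- cells with EV. It was at 5302 and 5873 with Pax5WT and at 2431 and 2834 with Pax5K198R. It fell with Sirt7 loss (-0.89, adjusted p = 0.0234, limma) and with Pax5K198R against EV (-1.13, adjusted p = 0.00456, limma).

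**Figure D4:**
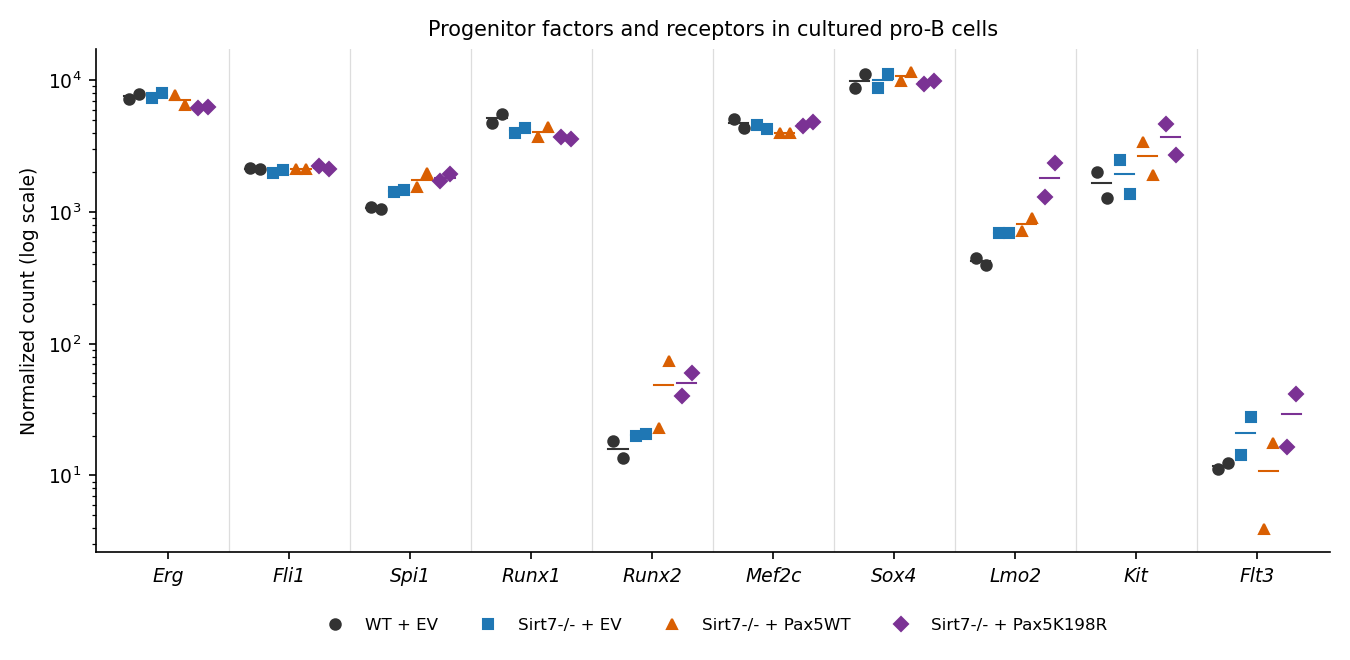
Normalized counts (log scale) of the 10 genes in cultured wild-type and Sirt7-/- pro-B cells, 1 point per library and a bar at each group's mean. Lmo2 is highest in the 2 Pax5K198R libraries, at 1299 and 2344, Kit is higher in the first replicate of every group, and Runx2 and Flt3 reach at most 74.2 and 41.6.

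**Figure D5:**
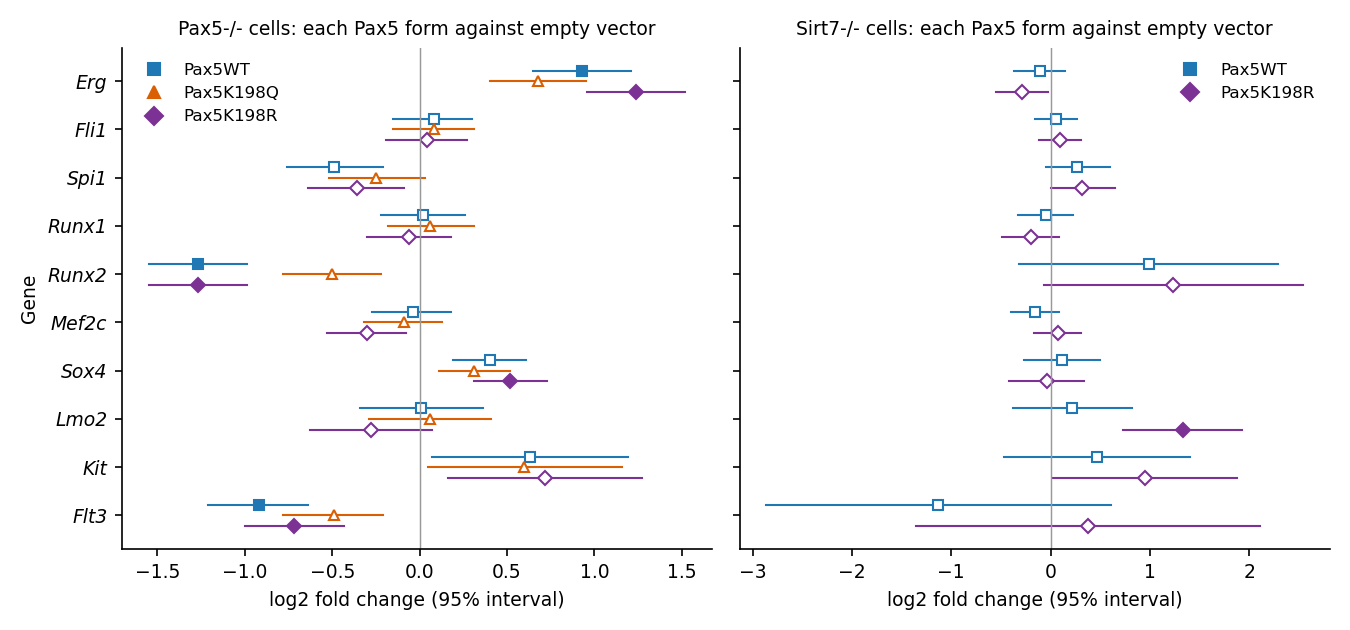
log2 fold change of each gene for each Pax5 form against EV with its 95% interval, in Pax5-/- cells (left) and Sirt7-/- cells (right, on a wider axis); filled symbols were called by limma without the block. Erg, Runx2, Flt3 and Sox4 are called on the left and Lmo2 on the right.

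Counts were divided by the union of all annotated exons of a gene, 15.71 kb for Mef2c, 12.03 kb for Runx1 and 4.795 kb for Sox4. The transcript expressed can be shorter than this union, so ranks between genes are approximate. On this scale the order of the 10 genes differed by culture. Sox4 was the highest in all sorted and Pax5-/- groups, at 4567 ± 127 normalized counts per kb in wild-type pro-B cells (SD, n = 2) and 1683 ± 2.46 in Pax5-/- cells with EV. In wild-type pro-B cells it was followed by Fli1 at 2502 ± 282, Spi1 at 2374 ± 32.7 and Erg at 2132 ± 171, and Flt3 and Runx2 were lowest, at 55.4 ± 16.0 and 55.4 ± 25.6. Fli1 did not differ from Spi1 beyond the spread of their libraries there, nor Mef2c from Kit or Runx2 from Flt3. In wild-type pre-B cells Erg dropped to seventh place at 71.5 ± 40.5. In Pax5-/- cells with EV, Flt3 was second at 1487 ± 192 and Kit lowest at 182.5 ± 48.7, with Runx2 overlapping Kit. In cultured wild-type cells Erg, at 2183 ± 145, and Sox4, at 2066 ± 361, led and overlapped, and Runx2 was lowest at 1.79 ± 0.371, overlapping Flt3.

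Genes with a pattern like that of each of the 10 were sought among 10575 genes tested in all tables, by Pearson r of log2(count + 1) over the 24 libraries after centring within each table. Erg was most like D630045J12Rik (r = 0.970), Smyd2 (0.968) and Siva1 (0.966), and Kit most like Zfp947 (0.970). Fli1 was most like Traf3 (0.945), Dnajc7 (0.941) and Prkce (0.937). Spi1 was most like Mgrn1, Stap1 (both 0.938) and Trpv2 (0.935). Runx2 was most like Ppfia4 (0.919), Rap2a (0.915) and Zfp473 (0.880), and Flt3 most like Gm9797 (0.924). Runx1 and Mef2c had the lowest first values, 0.767 with Micu2 and 0.792 with Cnot3. Within the 10, Erg and Kit reached 0.869 and Erg and Flt3 0.849, while Erg and Fli1 were at -0.856. The points are libraries of few groups that share a stage or a vector, so these values describe the tables and carry no test.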

How the data were processed

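Per the labels and the study's methods, the authors quantified RNA-seq reads with Salmon on mm10 and imported them with tximeta. The authors deposited a signal per gene, the count normalized by DESeq2 median of ratios, in 1 table per experiment. ChIP-seq reads were aligned with Bowtie2, and MACS2 called peaks per library against input. The deposited lists give fold enrichment, a ratio over input, and -log10 q-values; the peak names of the second Pax5K198R list carry another replicate number, and it was used as labelled.

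log2(count + 1) was fitted with limma 3.58.1 in R 4.3.3 over all groups of a table, for genes with a normalized count of at least 10 in at least 2 libraries, with Benjamini-Hochberg adjustment and a call at 0.05. Fold changes are on that scale and understate the change of low genes. In the sorted table the values gave whole reads (100% within 0.05 of a whole number; 50004827 to 55536608 per library), on which edgeR 4.0.16 and DESeq2 1.42.0 were run as alternatives. The depth of the other tables, with normalized totals of 27814214 to 30520853, is unknown. The fits were tested on simulated data.

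Replicate deviations correlated in every pair of groups of the Pax5-/- (r = 0.264 to 0.383) and cultured (0.156 to 0.428) tables, so a replicate block was also fitted; in the sorted table, libraries of the 2 stages come from the same mouse by the labels (0.156 and 0.080 within a genotype). p-values measure the spread between these libraries. Gene positions and exon lengths are from GENCODE release 21 for mouse (GRCm38). The 10 genes were set by the rule given; related genes and cell markers are lists, and all were chosen with earlier results of these data known. One item is not reported here. Related genes were named from those called, and likeness from the 3 highest correlations. Alternatives covered pseudocount, filter, scaling, fold threshold, samples in the fit, blocks and left-out libraries.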

Additional observations from a re-analysis of the deposited data

Results flagged for a closer look

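In 8 cases a gene had log2 differences of opposite sign in Pax5-/- and Sirt7-/- cells under the same contrast, with the groups apart in both. Pax5WT against EV gave -0.49 in Pax5-/- and 0.27 in Sirt7-/- cells for Spi1, and -1.27 and 0.99 for Runx2. Pax5K198R against EV gave 1.24 and -0.29 for Erg, -0.36 and 0.32 for Spi1, and -1.27 and 1.23 for Runx2. Pax5K198R against Pax5WT gave 0.31 and -0.18 for Erg, -0.26 and 0.23 for Mef2c, and -0.29 and 1.11 for Lmo2. By the same rule 9.93%, 13.8% and 6.79% of the 12356 genes tested in both tables were opposite in the 3 contrasts, and 7.36%, 10.6% and 8.05% were apart in both in the same direction. Of the 10 genes Kit alone was so, at 0.72 and 0.95 for Pax5K198R against EV. The Sirt7-/- values rest in part on single libraries. Without the second Pax5WT library, Spi1 and Runx2 for Pax5WT against EV were 0.09 and 0.16, and over all alternatives they ran from 0.09 to 0.46 and from 0.16 to 1.82. Lmo2 for Pax5K198R against Pax5WT ran from 0.68 to 1.54 and Erg from -0.30 to -0.05. The differences between the 2 cell backgrounds were not tested. In Pax5-/- cells Runx2 against EV for both forms and Erg for Pax5K198R against EV were called, while those of Spi1 (adjusted p = 0.0797 and 0.109, limma) and of Pax5K198R against Pax5WT were not. With the replicate block Spi1 was called there for Pax5WT and Pax5K198R against EV (adjusted p = 0.0245 and 0.0438, limma). Of the Sirt7-/- values none was called without the replicate block, and Runx2 there rests on counts of at most 74.2. The stromal feeder markers were higher than with EV for 10 of 10 with either form in Sirt7-/- cells, with medians of 0.75 for Pax5WT and 0.51 for Pax5K198R and none called, and their part in Runx2 was not tested.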

How the results depend on the processing

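Over the alternatives run for the 10 genes in all 15 comparisons, called changes stayed called 283 times and lost the call 71 times, each time in the same direction. Changes that were not called gained a call 23 times in the same direction, and 80 of their other values had the opposite sign. Unless stated, counts are of the 10 genes called, with all genes in brackets. With the replicate block the counts were 6 for Pax5WT against EV [1343, against 434 without it], 4 for Pax5K198Q against EV [363, against 123], 7 for Pax5K198R against EV [2834, against 1324] and 1 for Pax5K198Q against Pax5WT [29, against 3] in Pax5-/- cells. In Sirt7-/- cells they were 1 for Pax5WT against EV [268, against 5], 2 for Pax5K198R against EV [1588, against 659] and 2 for Pax5K198R against Pax5WT [314, against 58]. The block moved the count over all genes to 1004 from 383 for Pax5K198R against Pax5WT, to 1749 from 668 for Pax5K198R against Pax5K198Q, and to 288 from 76 for Sirt7 loss in culture. In the sorted cells the block on replicate number or mouse ended the call of Mef2c in Sirt7-/- cells and that on the mouse added Runx2 there; it changed no other call of the 10.

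Requiring a log2 fold change of at least 1.5 left 4 [2451, against 7090] between the stages in wild type and 3 [1809, against 6293] in Sirt7-/-. It left 0 for Pax5WT against EV [203], Pax5K198R against EV [612] and Pax5K198R against Pax5K198Q [337] in Pax5-/- cells, and 0 for Pax5K198R against EV in Sirt7-/- cells [346]; all genes were 213 for Pax5K198R against Pax5WT in Pax5-/- and 36 in Sirt7-/- cells. With no filter 6 remained between the stages in wild type and 5 in Sirt7-/-, where equal totals gave 6 and quantile normalization 5. With no filter 1 remained for Pax5K198R against Pax5K198Q [387] and 0 for Pax5K198R against EV in Sirt7-/- cells [423]. For Pax5K198R against Pax5K198Q, equal totals gave 1 [664], quantile normalization 1 [612] and the groups compared alone 0 [89]. A fit of the compared groups alone gave 4 between the stages in Sirt7-/- [4675], 3 for Pax5K198R against EV in Pax5-/- cells [673] and, over all genes, 40 for Pax5K198R against Pax5WT and 0 for Sirt7 loss in pro-B, in pre-B or in culture. For Sirt7 loss in pre-B cells, DESeq2 on whole reads gave 3 [720, against 15] and edgeR 0 [5]; DESeq2 gave 126 against 11 in pro-B cells and 101 against 1 for the interaction.

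Leaving out 1 library at a time gave 0 to 1 for Sirt7 loss in pre-B cells, 4 to 6 and 3 to 6 between the stages in wild type and Sirt7-/-, 1 to 3 for Pax5WT against EV, 0 to 1 for Pax5K198Q against EV, 2 to 5 for Pax5K198R against EV and 0 to 1 for Pax5K198R against Pax5K198Q in Pax5-/- cells, and 0 to 1 for Pax5K198R against EV in Sirt7-/- cells. Over all genes those counts ran from 14 to 177 for Sirt7 loss in pre-B cells, 4698 to 5244 and 3705 to 5836 between the stages, 89 to 166 for Pax5WT, 31 to 67 for Pax5K198Q and 561 to 1484 for Pax5K198R against EV, 20 to 576 for Pax5K198R against Pax5WT and 32 to 920 for Pax5K198R against Pax5K198Q in Pax5-/- cells, 3 to 60, against 76, for Sirt7 loss in culture, and 63 to 228 for Pax5K198R against EV and 2 to 13 for Pax5K198R against Pax5WT in Sirt7-/- cells. A lone library is then assumed to vary like the other groups. The peaks over the 10 genes with Pax5WT were 32 and 37 in the single lists against 22 regions shared by both. For shared regions a q-value limit of 5 on the -log10 scale gave 19, 8 and 25 with Pax5WT, Pax5K198Q and Pax5K198R, and 50 kb upstream gave 29, 12 and 39. The causes of these changes were not tested. With 2 libraries a group, an absent call does not show that levels were alike.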

Other observations

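In Sirt7-/- cells, where 35.7% of all genes were called between the stages, the related genes were called as follows. Of 18 stem and progenitor factors, 7 fell from pro-B to pre-B, among them Hoxa9, Hoxa10, Meis1, Tal1 and Hlf, and 2 rose, Zeb2 and Hhex, with a median log2 fold change of -0.79 against -0.04 over all genes tested. Of 16 family relatives 7 rose, among them Spib, Ets1 and Ets2, and 2 fell, Lmo1 and Sox12. Of 10 further receptors Csf1r and Cd34 fell and Csf2ra rose, and of 19 ligands and signal transducers 7 rose, Flt3l among them, and 2 fell, Fyn and Gab2. The shares of receptors and signal transducers called are near that of all genes. Without the second Sirt7-/- pre-B library, where 33.1% of all genes were called, 6 factors fell and 2 rose, 5 relatives rose and 2 fell, no receptor fell and 1 rose, and 6 signal transducers rose and 2 fell. Loss of Sirt7 called none of these related genes in sorted pro-B or pre-B cells by limma.

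In cultured cells Lmo1, the closest relative of Lmo2, had normalized counts of 32.0 and 43.2 in the wild type and, without Sirt7, of 29.8 and 16.5 with EV, 67.1 and 181.5 with Pax5WT and 157.1 and 154.2 with Pax5K198R, and rose with Pax5K198R against EV (log2 fold change 2.76, adjusted p = 0.0243, limma). Where 4.83% of all genes were called, Lmo1 was the 1 called of 16 family relatives, and of 8 further receptors Il7r and Cd93 fell. T cell markers, led by Thy1, summed to 3266 and 2200 in the wild type. Without Sirt7 they summed to 2966 and 1702 with EV, 1220 and 537.3 with Pax5WT and 888.5 and 522.3 with Pax5K198R. Of the 3 tested, Lck alone was called, lower with Pax5K198R than with EV, and 1 was higher.

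The endothelial markers of the sorted cells, led by Pecam1, summed to 13592 to 17662 in pre-B and 6679 to 7224 in pro-B libraries. Of the 5, Pecam1 and Cdh5 rose in both genotypes, Kdr fell in wild type and Emcn in Sirt7-/- cells. In the same comparisons 40.2% and 35.7% of all genes were called. The medians were -1.16 and -2.12, the latter -3.78 without the second Sirt7-/- pre-B library. The B cell markers, led by Cd79a, summed to 745018 to 850979 in pre-B and 468393 to 523556 in pro-B libraries.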
